A study of Mus musculus with 6 samples.

Results

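The nucleophosmin family and the proteins that build the nucleolus around it are covered here by 6 genes: Npm1, Npm2, Npm3, Ncl, Mki67 and Nolc1. They were chosen by name, and for each the H3K79me2 peaks over the gene body plus the 3 kb upstream of its start were taken from every peak list. The annotation (GENCODE M21, mouse build mm10) gives 55536 such gene windows, of which 18781 held a broad peak in at least 1 library. A broad peak was present in all 4 libraries at 5 of the 6 genes, and Npm2 held no peak of either kind. Of all protein-coding genes, 51.0% held a broad peak in all 4 libraries.

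The libraries came from N2a cells, a mouse neuroblastoma line, in which H3K79me2 (histone H3 dimethylated at lysine 79) was mapped by ChIP-seq with 4 µg of antibody. The CTR group (2 libraries) was transfected with the plasmid pLKO.1-shCTR, which carries a non-target hairpin, and the NPM1 KD group (2 libraries) with pLKO.1-shNpm1, a single hairpin against Npm1. Both groups grew for 72 h after transfection (3 days in vitro) and were selected with puromycin at 9.3 µg/ml in that time, so the controls also carry a hairpin plasmid and the selection. The 2 replicates of a group were separate passages and transfections of 1 cell line, and the knockdown is transient rather than a deletion. The comparison asks whether reduced NPM1 goes with a different spread or height of the mark. Peak lists do not measure RNA or protein, so the knockdown itself cannot be checked in them. The study checked it by immunoblot of the ChIP-seq replicates, which showed reduced NPM1.

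NPM1 is an abundant chaperone that shuttles between the nucleolus, where it forms oligomers around maturing ribosomes, and the nucleoplasm. NPM3 is its ubiquitous relative and NPM2 the form of the oocyte, which unpacks sperm chromatin and organizes the oocyte nucleolus. NCL (nucleolin) binds rRNA and its precursors, NOLC1 is a phosphoprotein scaffold for snoRNPs and RNA polymerase I, and MKI67 coats mitotic chromosomes and carries nucleolar proteins on their surface. H3K79me2 is placed by DOT1L behind the start of transcribed genes, so a domain that opens at a start and thins out along the body is the usual form of the mark at active genes.

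Promoter sequences show where these domains begin relative to the start. The RefSeq table (build GRCm38.p6) held entries for 4 of the 6 members, Npm3, Ncl, Mki67 and Nolc1, and each is printed below from 250 bases upstream to the last base before the RefSeq start, 5′ to 3′ along the gene. Capitals mark bases inside a broad peak in all 4 libraries. The windows are chr19:45749566-45749815 (minus strand) for Npm3, chr1:86359456-86359705 (minus) for Ncl, chr7:135716380-135716629 (minus) for Mki67 and chr19:46075597-46075846 (plus) for Nolc1.
Npm3: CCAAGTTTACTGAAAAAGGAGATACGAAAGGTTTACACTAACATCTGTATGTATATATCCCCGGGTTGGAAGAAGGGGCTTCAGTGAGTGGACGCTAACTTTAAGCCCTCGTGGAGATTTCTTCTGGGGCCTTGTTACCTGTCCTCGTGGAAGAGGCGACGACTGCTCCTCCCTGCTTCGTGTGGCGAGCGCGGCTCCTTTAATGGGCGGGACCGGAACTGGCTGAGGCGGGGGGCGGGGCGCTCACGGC
Ncl: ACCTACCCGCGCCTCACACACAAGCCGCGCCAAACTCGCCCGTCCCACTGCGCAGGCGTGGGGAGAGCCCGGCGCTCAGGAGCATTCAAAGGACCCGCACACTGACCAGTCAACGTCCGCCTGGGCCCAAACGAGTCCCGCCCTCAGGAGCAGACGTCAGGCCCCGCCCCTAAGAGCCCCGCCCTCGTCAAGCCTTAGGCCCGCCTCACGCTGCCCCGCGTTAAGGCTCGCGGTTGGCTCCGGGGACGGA
Mki67: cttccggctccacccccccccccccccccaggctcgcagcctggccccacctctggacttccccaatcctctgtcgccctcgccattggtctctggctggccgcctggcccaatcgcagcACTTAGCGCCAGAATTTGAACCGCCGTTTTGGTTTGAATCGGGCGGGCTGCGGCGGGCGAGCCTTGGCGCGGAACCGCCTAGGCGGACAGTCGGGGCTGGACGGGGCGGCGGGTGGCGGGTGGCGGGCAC
Nolc1: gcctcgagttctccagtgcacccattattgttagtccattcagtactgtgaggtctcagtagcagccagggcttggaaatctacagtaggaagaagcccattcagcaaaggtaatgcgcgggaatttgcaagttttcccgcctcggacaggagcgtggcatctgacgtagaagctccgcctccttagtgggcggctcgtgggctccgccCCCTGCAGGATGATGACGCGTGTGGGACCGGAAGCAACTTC
All 250 bases were in capitals at Npm3 and Ncl, whose domains run on far upstream, against the last 130 bases at Mki67 and the last 41 at Nolc1. The GC content was 56.4% at Npm3 and at Nolc1, 69.6% at Ncl and 71.6% at Mki67, against a median of 52.4% over all 32851 promoters of the table. CpG dinucleotides numbered 14 (Nolc1) to 27 (Ncl), and the median over all promoters was 6.

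A search of both strands for 4 short motifs gave the following matches, which are descriptions of letters and not of binding. The GC box GGGCGG was present in all 4 sequences and in 32.7% of all promoters of the same length. It lay under capitals at Npm3, Ncl and Mki67, and at Nolc1 its matches began 62 and 46 bases before the RefSeq start, neither of them wholly under capitals. The CCAAT box CCAAT had 3 matches at Mki67 and none at the other 3 genes, with 33.8% of all promoters holding it. Neither the E-box CACGTG (6.02% of all promoters) nor the TATA box TATAAA (12.4%) was in any of the 4 windows. None of the matches of one motif overlapped those of another.

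At Npm1 the study's own ChIP-qPCR primers show which stretch was assayed there. The study called the H3K79me2 increase at Npm1 in that assay almost significant. The primers are printed 5′ to 3′ in lower case.
Npm1 forward: tgacagcggccctaatctttt
Npm1 reverse: tctgacacgtctctggagtct
Each primer matched the GRCm38 genome once. Together they bound 111 bp at chr11:33163891-33164001, from 685 to 795 bp upstream of the GENCODE start of Npm1, and the whole stretch was inside a broad peak in all 4 libraries. It lay away from the highest signal of the gene, which was downstream of the start.

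The lists held 34845 to 48764 broad and 73801 to 88348 narrow peaks per library. Read numbers were not analysed here, so depth was read from the fragments piled up at narrow summits, which the deposited fold and p-value fix. The background pileup was 11.9 and 7.65 fragments in CTR 1 and CTR 2 and 8.99 and 11.8 fragments in NPM1 KD 1 and NPM1 KD 2, so CTR 2 was the shallowest library. It also had the fewest peaks of both kinds, and the part of depth in the results below was not tested. As a check of the cells, 12 neuroblastoma genes held a broad peak in all 4 libraries and Dbh held no peak, against 0 of 10 genes of other lineages with one. The fold is scaled within each library, and no spike-in values were analysed here, so a change of the mark shared by the whole genome cannot be told apart from no change. The study's immunoblots of the ChIP-seq replicates showed more total H3K79me2 in NPM1 KD. A lower fold in the results below is therefore not a measure of the total mark.

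Npm1 (chr11:33152287-33163206, minus strand, 10920 bp) lay under a single broad peak in every library. The domain began 1476, 1380, 1412 and 1476 bp upstream of the start in CTR 1, CTR 2, NPM1 KD 1 and NPM1 KD 2, and ended 1567, 663, 2024 and 1577 bp past the annotated end of the gene. It therefore crossed the whole transcribed unit in all 4 libraries. Broad peaks covered 89.1%, 88.4%, 88.6% and 89.1% of the window in the same order, and the groups overlapped. The narrow lists broke this domain just before the start in 3 of 4 libraries: an upstream peak stopped 365 bp before it in CTR 2, 149 bp before it in NPM1 KD 1 and 182 bp before it in the other knockdown library, and the main peak opened within 27 bp of the start. In CTR 1 a single narrow peak of 13801 bp ran through.

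Npm3 (chr19:45747734-45749591, minus strand), the shortest of the 6 genes at 1858 bp, was covered over 100% of its window in every library. Its broad peak was shared with Mgea5, the gene of the enzyme that removes O-GlcNAc, which lies on the same strand and ends 668 bp upstream of the Npm3 start. The antisense transcript Gm15491 (chr19:45749508-45752310, plus strand) starts 83 bp inside Npm3 and runs over most of the 3 kb upstream of it, so the signal there cannot be given to one transcript. The shared domain was 11594, 11463 and 11661 bp wide in CTR 1, CTR 2 and NPM1 KD 2 and 36513 bp in NPM1 KD 1. In the first 3 of these libraries the next broad peak over Mgea5 began after a gap of only 666, 770 and 562 bp, a gap that NPM1 KD 1 did not have. In NPM1 KD 1 the 2 domains were thus called as 1. Narrow peaks separated the genes: the peak over the Npm3 body began 174, 161, 244 and 81 bp before the start in CTR 1, CTR 2, NPM1 KD 1 and NPM1 KD 2, and the peak on the Mgea5 side stopped 403 to 505 bp before it. The processed pseudogene Npm3-ps1 on chromosome 6 held 0 bp of broad or narrow peaks in the 4 libraries.

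Ncl (chr1:86344719-86359400, minus strand, 14682 bp) had a domain that opened 4076 and 4159 bp upstream in CTR and 4257 and 4287 bp upstream in NPM1 KD. It thus opened slightly further upstream in both knockdown libraries, an order whose share over all genes was not computed. The Npm3 domain had the same order, at 9155 and 9028 bp upstream in CTR 1 and CTR 2. In NPM1 KD 1, where it was joined to the next domain, it opened 34026 bp upstream, and in NPM1 KD 2 9332 bp. The divergent transcript C130036L24Rik starts 174 bp from the Ncl start inside the upstream stretch, and several snoRNAs lie in Ncl introns. The signal on either side of the start therefore cannot be given to one transcript. The domain stopped short of the gene end, by 4096 and 3324 bp in CTR and by 4601 and 5407 bp in NPM1 KD. Broad coverage of the window was 76.8% and 81.2% in CTR and 74.0% and 72.3% in NPM1 KD, so both knockdown libraries were below both controls.

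Mki67 (chr7:135689784-135716361, minus strand), the longest member at 26578 bp, carried 2 broad domains in each library. The first ran from 228, 667, 967 and 148 bp upstream of the start to 16159, 16036, 16106 and 15999 bp downstream in CTR 1, CTR 2, NPM1 KD 1 and NPM1 KD 2. The second covered most of the remainder of the gene at a lower level, with a broad fold of 3.04 to 3.35 against 8.04 to 10.0 over the first. A gap of 425 bp at chr7:135699777-135700201 was free of broad peaks in all 4 libraries. It lies 16160 to 16584 bp from the start, inside the longest exon of the gene (6836 bp). Broad peaks covered 85.8%, 89.2%, 90.6% and 88.4% of the window in the same order.

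Nolc1 (chr19:46075863-46085530, plus strand, 9668 bp) had the domain edge closest to its start, at 79, 363, 92 and 57 bp upstream in CTR 1, CTR 2, NPM1 KD 1 and NPM1 KD 2. Over protein-coding genes with a domain on their start in all 4 libraries (4870 genes), the median upstream extent was 1665 bp. Broad coverage of the Nolc1 window was 78.6%, 69.5%, 78.2% and 69.3%. Part of it belonged to the upstream neighbour Pprc1, a coactivator of mitochondrial biogenesis, whose gene ends 2948 bp before the Nolc1 start and whose domain reached into the window in CTR 1, NPM1 KD 1 and NPM1 KD 2. Nolc1's own domain was 8346, 8432, 8920 and 7691 bp wide and ended 840 to 2034 bp short of the gene end.

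**Figure D1:**
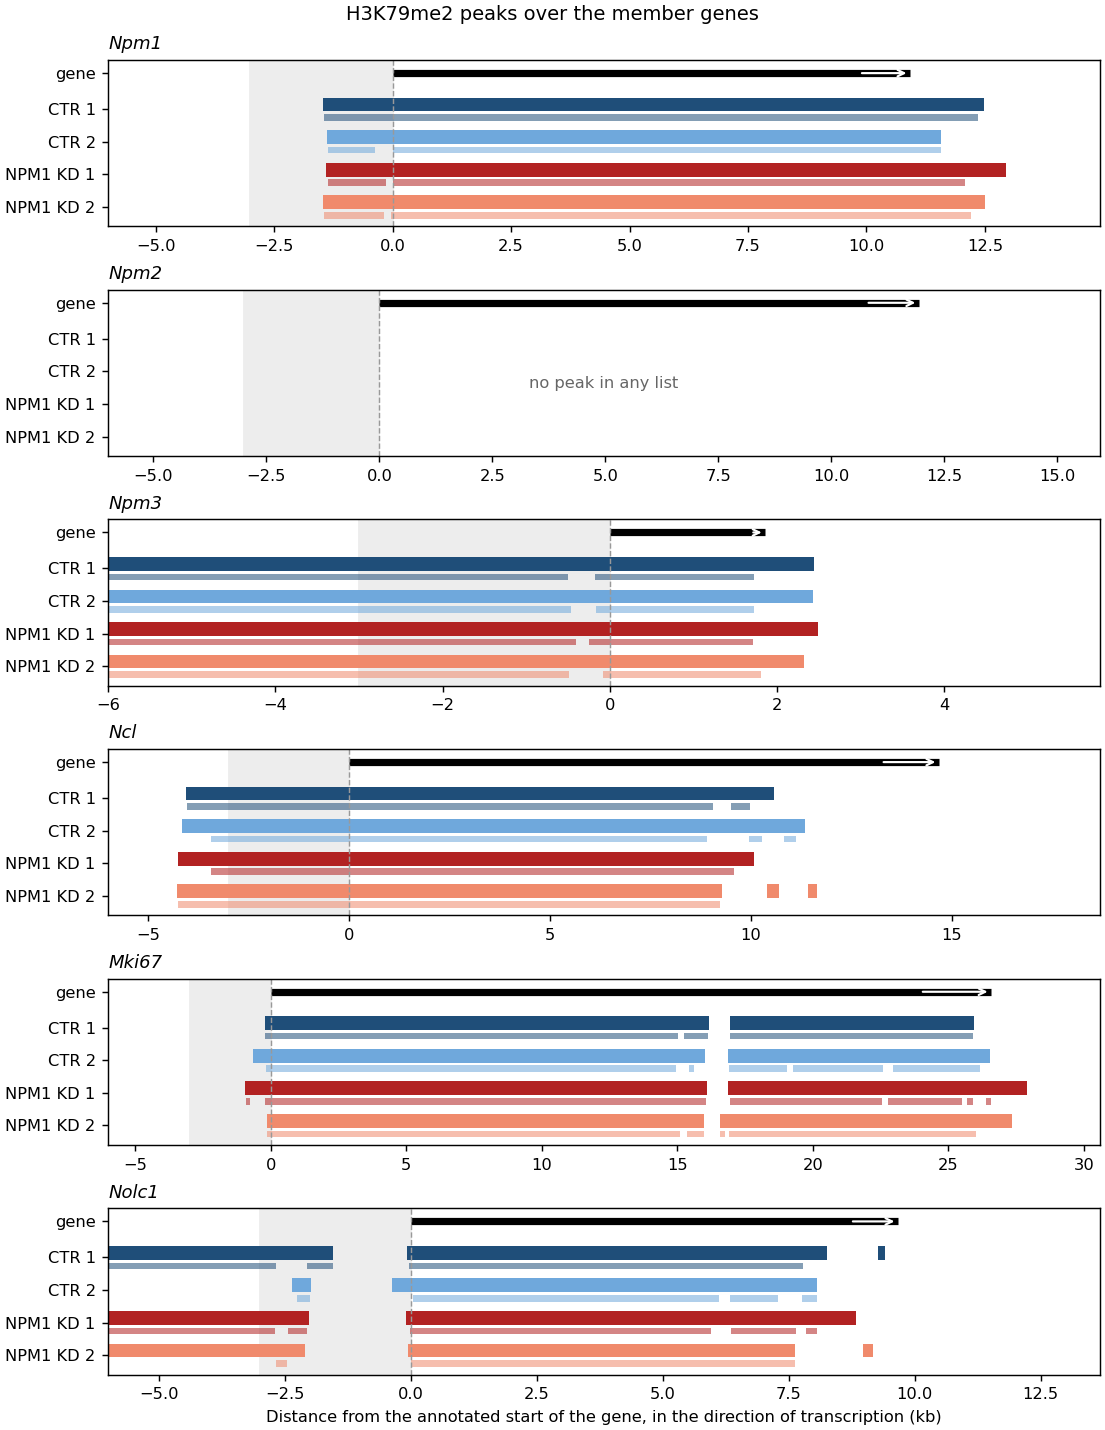
Broad peaks (thick bars) and narrow peaks (thin bars below them) of each library over the 6 genes, against distance from the annotated start in kb, with the gene in black, the 3 kb upstream shaded and bars cut at the panel edge. CTR libraries are blue and NPM1 KD libraries red, Npm2 is empty, and the second domain of Mki67 follows a gap that all 4 libraries share.

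Npm2 (chr14:70647302-70659244, minus strand, 11943 bp) held 0 bp of broad or narrow peaks in CTR 1, CTR 2, NPM1 KD 1 and NPM1 KD 2. The nearest broad peak upstream of its start was 44127 to 45497 bp away. Downstream of the gene the nearest lay 47331, 47526 and 47651 bp away in CTR 1, CTR 2 and NPM1 KD 2, while NPM1 KD 1 had a weak one at 20418 bp (−log10 q 1.11). A peak could be called from a summit of 16 to 22 fragments, depending on the library, so a weaker signal at Npm2 was not detectable.

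The empty window is not empty of genes, since the last 4999 bp of Xpo7, a nuclear export receptor gene on the same strand, overlap Npm2. Xpo7 is 112383 bp long and its own domain reached 31907 to 31980 bp from its start, covering 48.4% to 48.8% of its window. The domain thus ended far before the part that overlaps Npm2. Among 12 oocyte genes set beside Npm2, 10 held no peak in any library. The exceptions were Gdf9, an oocyte growth factor gene, with 29.4% of its window covered, and Zar1, with a weak narrow peak in CTR 1 and another in NPM1 KD 1. The Gdf9 start was not under a broad peak in all 4 libraries, and whether its signal belongs to a neighbour was not examined. Of all 22028 protein-coding genes, 44.9% held no peak of either kind, so absence of the mark is common and Npm2 is not set apart by it.

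**Figure D2:**
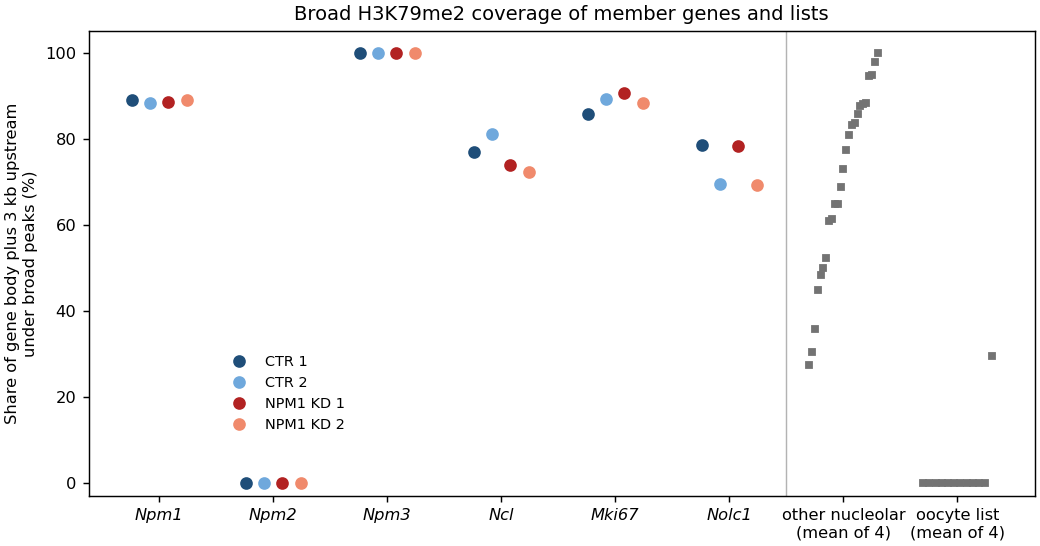
Percent of each gene window (body plus 3 kb upstream) under broad peaks, 1 point per library for the 6 members, with the mean of 4 libraries for each of 25 other nucleolar genes and 12 oocyte genes as grey squares. Npm3 is at 100% and Npm2 at 0% in every library, and the other 4 members lie between 69.3% and 90.6%.

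By share of the window covered, the members ranked Npm3, Npm1, Mki67, Ncl, Nolc1 and Npm2, with means over 4 libraries of 100%, 88.8%, 88.5%, 76.1%, 73.9% and 0%. Npm1 was above Mki67 in only 2 of 4 libraries, and Ncl was above Nolc1 in 2 of 4, so these neighbours do not differ beyond their spread. The median over 11233 protein-coding genes with a broad peak in all 4 libraries was 50.2%, with an interquartile range of 25.1% to 74.9%. Npm1, Npm3, Ncl and Mki67 lay above that range on their means.

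The height of the mark was taken as the highest fold over background among narrow summits in the window. The intervals below are exact 95% Poisson intervals of the summit pileup on the fold scale, which cover counting error only. At Npm1 the highest fold was 36.9 (33.7 to 40.4) and 34.1 (30.3 to 38.2) in CTR 1 and CTR 2, and 35.8 (32.2 to 39.8) and 24.5 (21.9 to 27.4) in NPM1 KD 1 and NPM1 KD 2. The pileups behind these values were 475, 294, 357 and 312 fragments. NPM1 KD 2 was below the other 3 libraries, whose values lay close together, and the groups overlapped.

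Npm3 stood at a lower level. Its highest fold was 18.5 (16.3 to 21.0), 17.5 (14.8 to 20.5), 20.4 (17.7 to 23.4) and 12.1 (10.3 to 14.2) in CTR 1, CTR 2, NPM1 KD 1 and NPM1 KD 2. NPM1 KD 1 was the highest library and NPM1 KD 2 the lowest, so the groups overlapped here too.

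At Ncl, Mki67 and Nolc1 both knockdown libraries were below both controls. Ncl had a highest fold of 28.9 (26.1 to 32.0) and 30.2 (26.6 to 34.1) in CTR and of 26.5 (23.4 to 29.9) and 20.3 (18.0 to 23.0) in NPM1 KD. The counting intervals of NPM1 KD 1 and both controls overlapped, and that of NPM1 KD 2 lay below them. Mki67 had 28.1 (25.3 to 31.1) and 28.3 (24.9 to 32.1) in CTR and 23.2 (20.3 to 26.4) and 24.0 (21.4 to 26.9) in NPM1 KD, with intervals that overlapped between the groups. Nolc1 had 32.7 (29.7 to 36.0) and 33.9 (30.1 to 38.0) in CTR and 30.3 (27.0 to 34.0) and 27.1 (24.3 to 30.1) in NPM1 KD. The counting interval of NPM1 KD 1 overlapped those of both controls. That of NPM1 KD 2 overlapped the interval of CTR 1 and met that of CTR 2 at 30.1.

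**Figure D3:**
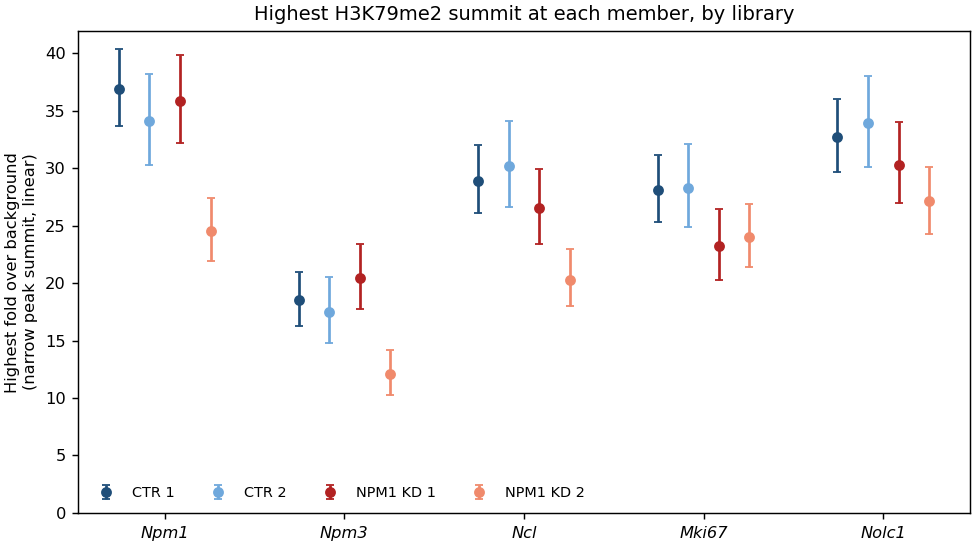
Highest fold over background among narrow summits at the 5 members with peaks, 1 point per library, with exact 95% Poisson intervals of the summit pileup on a linear axis that starts at 0. NPM1 KD 2 is the lowest library at Npm1, Npm3, Ncl and Nolc1, and at Mki67 the lowest is NPM1 KD 1.

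Both knockdown libraries were thus below both controls at 3 of the 5 members with a summit, and above at none. Over all 14475 genes with a summit in every library, 26.5% showed that order. With values centred on each library's median, the count was 4 of 5 members, Npm1 joining by a margin of 1.52 against 1.53 (log2), and 22.8% of all genes. After quantile normalization over the same genes the order held at Ncl alone, and Nolc1 had a difference of 0.01 in place of −0.16. Without NPM1 KD 2 the same 3 members were below, and without NPM1 KD 1 all 5 were. A lone knockdown library falls below both controls more readily than a pair does. The shares over all genes were not computed after quantile normalization or without a library, so these counts cannot be read as a trait of the members.

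The fit across all genes called none of the members. It used heights from peak lists, whereas the study's own test used aligned reads. The study's supplement lists a region at Npm1 as lower in NPM1 KD, under the study's FDR threshold of 0.05 by DiffBind. Its text, however, counts Npm1 among the enriched genes. The lack of a call here therefore does not show that Npm1 was unchanged. With limma on centred log2 values, the difference (NPM1 KD minus CTR) was −0.20 ± 0.15 (SE, n = 2 per group) at Npm1, with a Benjamini-Hochberg adjusted p of 0.702. Ncl had the most negative value, −0.29 ± 0.13 with an adjusted p of 0.632 by limma. Mki67 (−0.20), Nolc1 (−0.16) and Npm3 (−0.13) had limma adjusted p-values of 0.697, 0.711 and 0.845. Over all genes tested, 0.138% were called, 10 higher and 10 lower in NPM1 KD, and 1093 genes had an unadjusted p below 0.05, none of them a member. Single libraries moved these values: without NPM1 KD 1 the difference was −0.37 at Npm1, −0.40 at Npm3 and −0.06 at Mki67, and without NPM1 KD 2 it was −0.04, 0.13 and −0.33. Without CTR 2 the Nolc1 difference was −0.10. After quantile normalization Npm1 had −0.04, Npm3 −0.08, Ncl −0.16 and Mki67 −0.06. The median of all genes was −0.07 before centring.

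Each of these differences lay below the median difference of genes with a summit of like height. Among the 2895 genes between the 75th and the 95th percentile of mean highest fold, the range that held Npm1, Ncl, Mki67 and Nolc1, the median centred difference was −0.13 with an interquartile range of −0.22 to −0.04. Npm1, Mki67 and Nolc1 lay inside that range and Ncl below it. In the same bin 47.1% of genes had both knockdown libraries below both controls, against 12.3% of genes up to the 25th percentile. Among the 724 genes above the 95th percentile, the median difference was −0.24. Npm3, at the 65.7th percentile, belonged to a bin whose median was −0.03 and whose interquartile range was −0.13 to 0.06. The Npm3 difference of −0.13 stood at the lower edge of that range. The share of a gene's difference that goes with its level was not tested.

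**Figure D4:**
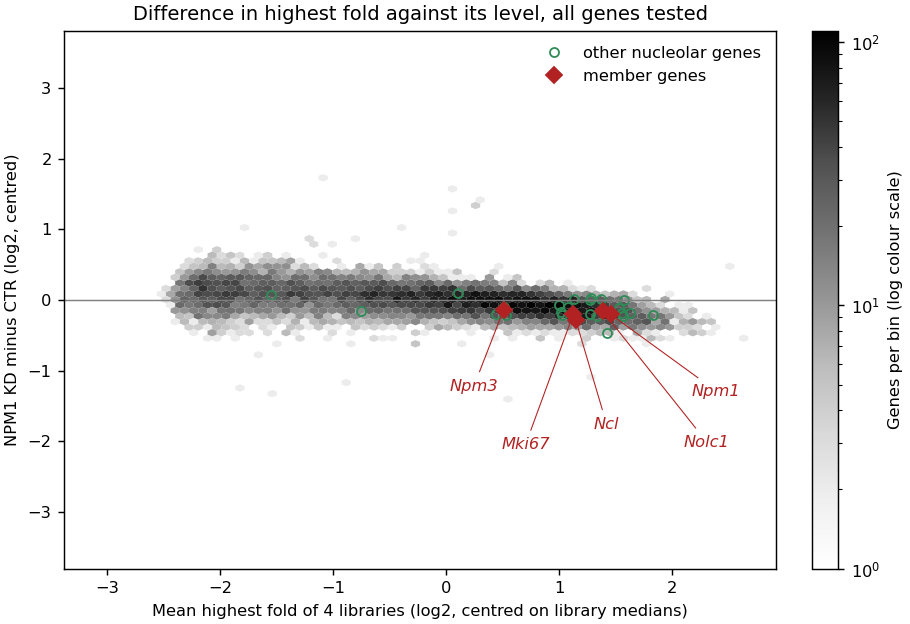
Difference in highest fold (NPM1 KD minus CTR, log2, centred on library medians) against the mean highest fold of 4 libraries on the same scale, with all 14475 genes as bins shaded by number of genes. The 5 members (red diamonds) and other nucleolar genes (green circles) lie mostly in the right-hand part, where the whole cloud slopes below 0.

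As a rank within its own library, the highest fold of Npm1 was at or above that of 94.7%, 94.0%, 95.7% and 91.4% of genes with a summit in CTR 1, CTR 2, NPM1 KD 1 and NPM1 KD 2. Nolc1 stood at 91.6%, 93.7%, 91.6% and 94.4%, and Mki67 at 86.5%, 88.2%, 81.2% and 90.4%. Ncl was the only member whose ranks did not overlap between groups, at 87.4% and 90.4% in CTR and 86.7% and 83.0% in NPM1 KD. That order rests on 86.7% (NPM1 KD 1) against 87.4% (CTR 1), and its share over all genes was not computed. The mean order of height was Npm1, Nolc1, Ncl, Mki67 and Npm3 (32.8, 31.0, 26.5, 25.9 and 17.1), where Nolc1 exceeded Ncl and Mki67 exceeded Npm3 in all 4 libraries, whereas Npm1 exceeded Nolc1, and Ncl exceeded Mki67, in 3 of 4.

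The highest summit stood close behind the start. It lay 513, 577, 545 and 482 bp downstream of the Npm1 start in CTR 1, CTR 2, NPM1 KD 1 and NPM1 KD 2, in an intron, and 356 to 406 bp downstream of the Npm3 start, in an exon. At Nolc1 it lay 1024 to 1195 bp downstream, in an intron. Ncl had its summit 1277, 1224 and 1228 bp downstream in CTR 1, CTR 2 and NPM1 KD 2 and 685 bp downstream in NPM1 KD 1, always in an exon. At Mki67 the highest summit lay at 1 of 2 places, 400 bp (CTR 1) and 368 bp (NPM1 KD 1) or 2950 bp (CTR 2) and 2933 bp (NPM1 KD 2), so the libraries were split within each group. The median distance over 10895 protein-coding genes was 1262 bp, with an interquartile range of 609 to 2881 bp. The Npm1 and Npm3 summits were nearer to the start than that range.

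The broad lists give the mean fold over the domain on the start. It was 11.5, 12.5, 9.95 and 10.6 at Npm1, 10.6, 10.7, 9.29 and 8.94 at Ncl, 9.50, 10.0, 8.04 and 8.87 at Mki67 and 11.4, 11.3, 10.4 and 9.80 at Nolc1, in the order CTR 1, CTR 2, NPM1 KD 1 and NPM1 KD 2. Both knockdown libraries were below both controls at these 4 of 5 members, with 45.9% of 8556 genes in that order. The exception, Npm3, had 4.73, 4.51, 7.56 and 4.14, where the value of NPM1 KD 1 is that of the domain joined to the body of Mgea5. On the log2 scale the differences were −0.22 (Npm1), −0.23 (Ncl), −0.21 (Mki67) and −0.17 (Nolc1), against a median of −0.08 over all genes with such a domain.

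The length covered by broad peaks did not separate the groups at Npm1, Npm3, Mki67 or Nolc1. Ncl was the exception, with 13586 and 14358 bp in CTR and 13081 and 12789 bp in NPM1 KD, a mean difference of −1037 bp (−651 bp without CTR 2). Both knockdown libraries were below both controls at 1 of 5 members, against 3.14% of 18781 genes, and above both at none, against 38.7%. Npm3 was fully covered in every library, so an increase could not show there. At Npm1 the domain ran past the gene end in every library, so only its upstream edge could move the covered length. An exact permutation test of 2 libraries against 2 cannot go below p = 0.33 (two-sided), the value Ncl had. By limma on log2(covered bp + 1000), the Ncl difference was −0.10 ± 0.04 (SE, n = 2 per group) with an adjusted p of 0.441, and no member was called, against 0.0266% of all genes (5, all higher in NPM1 KD). With the replicate number as a block, limma called 0 genes for covered length, with 3035 at an unadjusted p below 0.05. The narrow lists covered 12556 and 12540 bp of Ncl in CTR and 12591 and 12241 bp in NPM1 KD, with a mean difference of −132 bp, so the groups overlapped there. The shortfall in the broad lists lay at the far end of the gene, where in NPM1 KD 2 a domain that ended 9274 bp from the start was followed by broad peaks of only 219 and 295 bp.

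The downstream edge of the domain on the start differed in opposite directions at a pair of members. At Npm1 it lay 12486 and 11582 bp from the start in CTR and 12943 and 12496 bp in NPM1 KD, further downstream in both knockdown libraries by a margin of 10 bp between CTR 1 and NPM1 KD 2. At Ncl it lay 10585 and 11357 bp away in CTR and 10080 and 9274 bp in NPM1 KD, less far in both. An edge further downstream in both knockdown libraries was seen at 36.5% of 8556 genes, and one less far at 6.46%. With narrow peaks merged within 1 kb the groups overlapped at both genes.

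Other nucleolar genes were set beside the members. All 25 genes of the list (among them genes of box C/D and H/ACA snoRNP proteins, processing factors and nucleolar GTPases) held a broad peak in every library. Over all protein-coding genes, 51.0% did. The median share of the window covered was 72.9% over the list. The largest shares were at Ftsj3 (100%), an rRNA processing methyltransferase gene, Bop1 (97.9%), a processing factor for the large subunit, and Nop56 (94.9%), a box C/D core protein gene. The smallest were at Tcof1 (27.3%), Nop10 (30.5%) and Gnl2 (35.8%). limma called 0 of 25 for covered length (5 at an unadjusted p below 0.05) and 0 of 24 for highest fold (1 at that level), where the list's median difference was −0.13 against −0.01 over all genes. Both knockdown libraries were below both controls at 15 of these 24, and above both at none, where 26.5% of all genes tested, and 47.1% of those between the 75th and the 95th percentile of level, had the first order. For covered length both knockdown libraries were above both controls at 10 of 25 and below at 1, against 38.7% and 3.14% of all genes.

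Over 10890 protein-coding genes with a summit in every library, those whose values were most like Npm1 (Euclidean distance over 8 values, percent covered and fold percentile in each library) were Eif2s2 (distance 2.86), Hnrnpc (2.95) and Hnrnpll (5.02). Eif2s2 encodes a subunit of a translation initiation factor, and the others encode RNA-binding hnRNP proteins. Their mean highest folds were 34.6, 32.0 and 31.9, against 32.8 at Npm1. That closeness follows from the choice, since the fold percentile was part of the distance.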

How the data were processed

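H3K79me2 ChIP-seq peak lists of 4 N2a libraries (2 CTR, 2 NPM1 KD, grouped by their titles) were analysed, and the 2 pooled inputs were not analysed here. Per the study's methods and the labels, the authors aligned paired-end reads to mm10 with Bowtie2 2.3.4.1 and called peaks per library with MACS2, given as version 2.2.6 in the labels. Names in the narrow lists carry the aligner alone and those in the broad lists the word filtered, so the lists may stem from different read sets. Deposited values were the fold (a ratio of pileup to background, at the summit or averaged over a broad peak), the −log10 p and −log10 q, a score of 10 times −log10 q, and the distance of the summit from the peak start.

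Python 3.11.15 served for windows and intervals (scipy 1.17.1, pandas 2.3.3, numpy 2.4.6) and for figures (matplotlib 3.10.9). Summit pileups were solved from the deposited fold and p, and came out whole (within 0.05) for 100% of narrow peaks, with 97.5% to 99.66% of them at the library's median background within 1%. Intervals hold the background fixed and cover counting error only. limma 3.58.1 (R 4.3.3) was fitted over all windows on log2(broad covered bp + 1000), for windows with a broad peak in at least 1 library, and on log2 highest fold centred on library medians, for windows with a summit in all 4, with Benjamini-Hochberg adjustment at 0.05. Zero variances of fully covered windows were offset by limma. Fits were tested on simulated data with shifts far larger than the member differences, so detection of differences as small as these was not examined. Single values were compared by a two-sided exact permutation test, and p-values measure the spread between 2 samples per group. Per the study's methods each replicate had its own passage and transfection batch, so equal numbers were taken as paired for the blocked alternative, and their deviations from the group means correlated at 0.195 (covered length) and 0.265 (highest fold) over 2 pairs. Differences are NPM1 KD minus CTR, and distances run along the gene from its GENCODE start. Alternatives were the other list, pseudocount, −log10 q of at least 5, window, gene set, scaling, a replicate block and leaving out each library.

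The members, the lists of nucleolar, oocyte and marker genes, and the tests were chosen with earlier results of these data known. The text names all 6 members, neighbours whose peaks enter their windows, the 3 nucleolar genes most and least covered, the oocyte and marker genes that depart from their list, and the 3 genes most like Npm1. An item of the neuroblastoma list is not reported here.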

Additional observations from a re-analysis of the deposited data

How the results depend on the processing

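None of the members was called by limma under any of the 12 alternatives for covered length, or under any for highest fold, of which 11 gave a value for Npm1 and Npm3 and 10 for Ncl, Mki67 and Nolc1. With the broad lists the Npm3 window was fully covered, so an increase in covered length could not be called there. For covered length, where 5 genes of the whole table were called, the count was 22 with a pseudocount of 200 bp, 83 with peaks of −log10 q of at least 5, 81 over the gene body alone, 18 with no filter on windows (a fit with most variances at 0) and 1 among protein-coding genes. limma called 0 with the narrow lists (1880 genes at an unadjusted p below 0.05), 0 after centring (1791) and 0 without any one library (1964 to 3224). For highest fold, where 20 were called, the count was 95 with the broad lists, 13 with the stricter peaks, 1 for summits within 1 kb of the start, 12 among protein-coding genes, and 42 (without CTR 2) to 99 (without NPM1 KD 1) without one library. The causes were not tested. The lone library left in a group by leaving out the other was assumed to vary like the other group.

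Members whose covered length did not overlap between groups numbered 1 in the main setting (Ncl) and 1 with the narrow lists (Mki67). Over the gene body alone the count was 2 (Ncl and Mki67), and without one library it was 2 to 3. For the rank of the highest fold the number was 1, and 1 to 5 without one library. For the downstream edge it was 2, against 1 with narrow peaks merged within 1 kb (Mki67 in place of Npm1 and Ncl, with Nolc1 lacking a narrow peak over its start in 1 library) and 2 to 5 without one library. Members with a highest fold below both controls numbered 3, against 1 after quantile normalization and 3 to 5 without one library. The alternatives of that last count were chosen after seeing the data. Shares over all genes were not computed for the alternatives in this paragraph. Groups separate more readily where 1 library stands for a group. Ncl kept its order in every setting of these counts except covered length and the downstream edge in the narrow lists.

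With the replicate number as a block, limma called 0 genes for covered length (3035 at an unadjusted p below 0.05) and 17 for highest fold, none of them a member. Without read counts, depth limits every value here, and a signal under the calling threshold is not seen.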
